A study of Mus musculus with 6 samples.

Results

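The genes described are 45 cell cycle and proliferation genes of mouse, picked by symbol from the 54532 genes measured. They fall into 20 genes of G1 and S phase, 23 genes of G2 and M phase and 2 inhibitors of cyclin-dependent kinases. Their RNA levels were read from poly(A) RNA libraries of cultured BMVECs, primary endothelium of the smallest vessels of the brain. The cells came from wild-type C57BL/6J mice and were grown from digested vessel fragments under an early puromycin step, which favours brain endothelium, until they were confluent. In 1 group of 3 libraries the cells were left untreated, and in the other 3 libraries they had received processed mouse IL-36β (DEVDmIL-36β) at 100 ng/ml for 24 hours. Libraries are numbered within each group as in their titles. IL-36β is a cytokine of the interleukin-1 family that acts through its receptor on NF-κB and MAP kinase signalling.

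The labels give neither the age nor the number of the mice, nor whether libraries came from separate cultures, so the p-values measure only the spread between these libraries. They name no vehicle and no harvest time for the untreated cells. If the 0 and 24 in the library names are hours, time in culture and IL-36β cannot be told apart. No cells without the receptor were analysed here.

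A cell that divides passes from G1 through S phase, in which DNA is copied, and G2 to mitosis. Cyclin D and cyclin E with their kinases release E2F factors, which switch on the genes of DNA replication, and later the MuvB complex with B-MYB and FOXM1 switches on the genes of mitosis. Confluent endothelium is largely quiescent, and the DREAM complex then holds both gene groups down through E2F and CHR (cell cycle genes homology region) elements in their promoters. Because these elements define how the groups are controlled, promoter sequences are shown for the members with the lowest p in each group.

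RefSeq windows from 250 bases before to 50 bases after the transcription start (build GRCm38.p6) were found for 35 of the 45 genes, in 37 windows. The genes without one were Ccnd1, Ccne2, Mcm4, Gins2, Ccna2, Cdc25c, Aurkb, Kif20a, Tpx2 and Foxm1. Kif11 and Rrm2 had the lowest p among the G2 and M genes and the G1 and S genes with a window. Mki67 and Cdc6 were the next lowest and were added after the values were seen. Each is written 5′ to 3′ on the strand of its gene, and capitals mark every match to a CHR, a CCAAT box or an E2F motif, on either strand. The CHR was searched as TTTGAA. It was also searched as TTCGAA. The letters CCAAT stood for the CCAAT box. The Kif11 window is chr19:37376132-37376431 on the plus strand, the Mki67 window chr7:135716330-135716629 on the minus strand, the Rrm2 window chr12:24708004-24708303 on the plus strand and the Cdc6 window chr11:98907901-98908200 on the plus strand.
Kif11: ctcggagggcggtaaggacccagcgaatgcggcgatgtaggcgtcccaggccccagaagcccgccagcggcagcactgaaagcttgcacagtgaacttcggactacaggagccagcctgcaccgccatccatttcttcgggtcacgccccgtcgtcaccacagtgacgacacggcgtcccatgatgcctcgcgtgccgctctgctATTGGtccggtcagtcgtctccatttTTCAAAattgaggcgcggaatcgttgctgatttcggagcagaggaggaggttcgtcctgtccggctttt
Mki67: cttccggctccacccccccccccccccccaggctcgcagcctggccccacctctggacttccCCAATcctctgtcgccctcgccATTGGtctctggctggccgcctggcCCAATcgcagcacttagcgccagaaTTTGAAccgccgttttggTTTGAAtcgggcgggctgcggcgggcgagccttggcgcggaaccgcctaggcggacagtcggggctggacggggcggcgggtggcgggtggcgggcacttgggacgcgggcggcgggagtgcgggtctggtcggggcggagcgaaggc
Rrm2: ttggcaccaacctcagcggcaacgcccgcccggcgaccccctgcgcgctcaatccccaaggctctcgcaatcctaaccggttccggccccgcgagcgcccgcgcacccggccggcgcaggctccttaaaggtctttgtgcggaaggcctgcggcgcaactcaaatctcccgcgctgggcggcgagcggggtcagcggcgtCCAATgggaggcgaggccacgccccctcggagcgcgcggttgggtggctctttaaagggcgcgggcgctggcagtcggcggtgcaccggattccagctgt
Cdc6: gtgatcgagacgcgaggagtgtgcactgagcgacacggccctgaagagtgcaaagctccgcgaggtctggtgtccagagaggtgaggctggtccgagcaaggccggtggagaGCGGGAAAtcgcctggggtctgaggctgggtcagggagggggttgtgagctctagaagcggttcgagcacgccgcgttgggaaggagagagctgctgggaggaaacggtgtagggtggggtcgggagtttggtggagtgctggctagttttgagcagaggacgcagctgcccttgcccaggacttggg

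In Kif11 a CCAAT box on the reverse strand starts 45 bases before the transcription start, and a CHR on the reverse strand starts 19 bases before it. The Mki67 window holds 3 CCAAT boxes, starting 188, 166 and 141 bases before the start, and 2 CHR elements 116 and 98 bases before it. The Rrm2 window holds a CCAAT box 50 bases before the start and neither of the other motifs. The Cdc6 window holds an E2F motif 138 bases before the RefSeq start. The counted Cdc6 gene spans chromosome 11, 98907801 to 98923940, plus strand, so this window lies inside it. RefSeq and the counted gene thus place the Cdc6 start differently.

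Over all windows of the G2 and M genes, 14 of 17 (82.4%) held a CHR and 16 of 17 (94.1%) held a CCAAT box, the element bound by NF-Y. Of all 32851 RefSeq windows, 19.2% held a CHR and 37.4% a CCAAT box. Of the 17 windows of 16 G1 and S genes, 2 (11.8%) held a CHR and 10 (58.8%) a CCAAT box. The E2F motif was searched on both strands as TTTCGCGC, TTTGGCGC, TTTCCCGC, TTTGCCGC and a shorter form, GCGGGAA, which overlaps the third. They were found in 9 of the 17 G1 and S windows (52.9%), in 1 of the 17 G2 and M windows (Cdk1, 5.88%) and in 5.72% of all windows. The G1 and S genes with such a match were Cdk2, Cdc6, Cdt1, Mcm3, Mcm5, Mcm6, Mcm7 and Rrm1. Among the G2 and M genes, Birc5, Ccnb1 and Cenpe had no CHR letters in the window. A match is a description of letters and not a binding site.

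**Figure D1:**
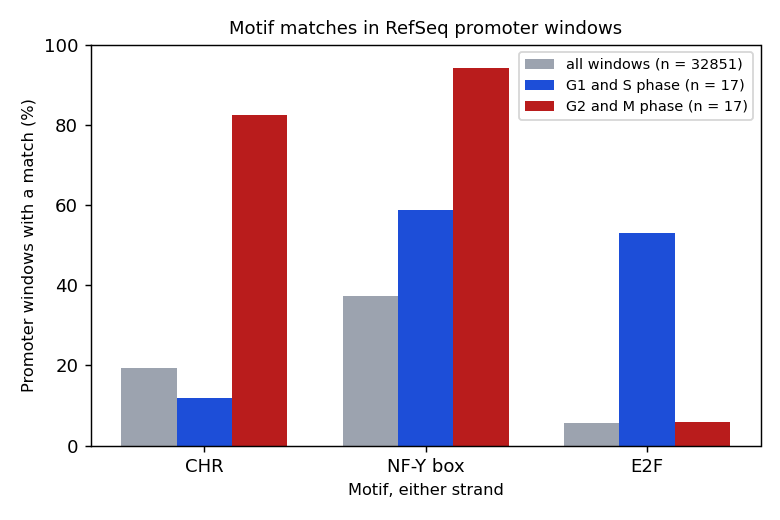
Share of RefSeq promoter windows (percent, y axis) with at least 1 match on either strand to a CHR, an NF-Y box (the CCAAT letters) or an E2F motif (x axis). Grey bars are all 32851 windows, blue bars the 17 windows of G1 and S genes and red bars the 17 windows of G2 and M genes, of which 82.4% held a CHR.

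Of the 45 genes, 43 reached an FPKM of 0.5 or more in 3 or more of the 6 libraries and entered the test. FPKM is the number of fragments scaled to gene length and library depth, so it allows levels of different genes to be compared. None of the 43 passed the threshold (limma, Benjamini-Hochberg adjusted p under 0.05 over 12618 genes), lower or higher. Among all genes tested, 0.182% passed in either direction and 0.0159% passed as lower with IL-36β. Without adjustment, 10 of the 43 genes were lower with IL-36β at a limma p under 0.05, against 4.41% of all genes, and 0 were higher, against 5.96% of all genes. Of these 10, 8 belong to G2 and M phase (Kif11, Ccna2, Mki67, Aurka, Aurkb, Foxm1, Ccnb2 and Kif20a) and 2 to G1 and S phase (Rrm2 and Mcm4).

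Fold changes are differences of mean log2(FPKM + 0.5), IL-36β minus untreated, a scale that understates the change of low genes. All 21 G2 and M genes tested had a fitted fold change below 0, with a median of -0.38. They include Cenpa, which met the filter through its untreated libraries. Of the 20 G1 and S genes 15 were below 0, with a median of -0.09, and both inhibitors were below 0. Of all genes tested 49.5% were below 0, and their median was 0.002. The difference between the 2 gene groups was not itself tested. In whole cultures, fewer cycling cells and less of each RNA per cell cannot be told apart.

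The values of the 2 groups of libraries did not overlap in 12 of the 43 genes, all lower with IL-36β, against 7.24% of all genes. In 0 of the 43 were all 3 IL-36β libraries above all untreated ones, against 8.95% of all genes. The 95% confidence interval of the fold change included 0 in 33 of the 43.

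**Figure D2:**
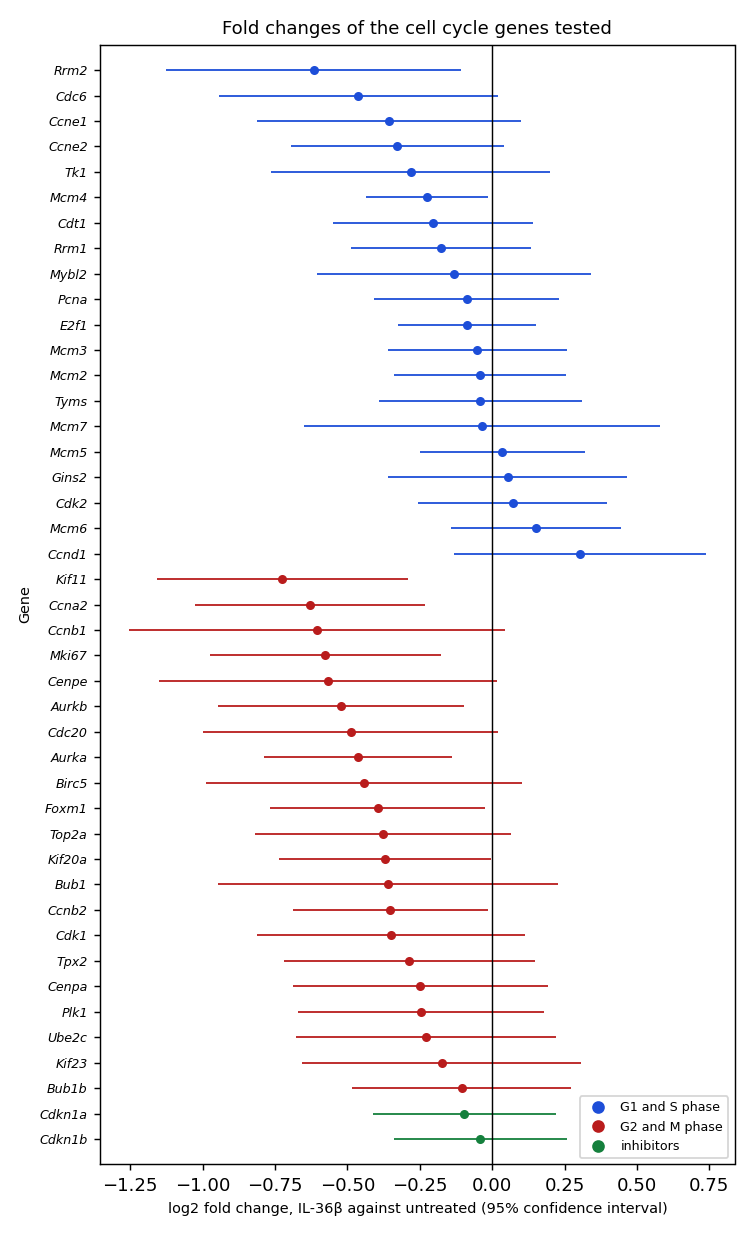
Fold change of each of the 43 genes tested (point, log2 scale, IL-36β against untreated, x axis) with its 95% confidence interval (bar), by gene group. All 21 G2 and M genes lie left of 0, 33 of the 43 intervals include 0, and 0 genes passed the adjusted threshold.

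Cyclin D1 is the cyclin that links growth signals to the cell cycle. Its gene Ccnd1 (chromosome 7, 144929931 to 144939925, minus strand, GRCm38) was the most abundant G1 and S gene. It stood at 278.1, 274.1 and 295.4 FPKM in untreated libraries 1 to 3 and at 271.6, 342.1 and 455.3 FPKM in IL-36β libraries 1 to 3. IL-36β libraries 2 and 3 lay above all untreated libraries and IL-36β library 1 lay below them. The fold change of 0.30 (95% confidence interval -0.13 to 0.74) did not pass (limma adjusted p = 0.602). Without IL-36β library 1, Ccnd1 was the 1 member higher at an unadjusted p under 0.05, against 5.33% of all genes.

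Cyclin E drives entry into S phase with the kinase Cdk2. Ccne1 stood at 7.17, 9.70 and 6.47 FPKM untreated and at 7.31, 5.94 and 4.67 FPKM with IL-36β. The groups overlapped, and the fold change of Ccne1 was -0.36 (limma adjusted p = 0.573). That of Ccne2, the other cyclin E gene, was -0.33 (limma adjusted p = 0.533). Ccne2 overlaps Ints8 on the opposite strand, which had 4.21 to 5.96 FPKM, so its value is uncertain. Cdk2 lay between 3.18 and 4.38 FPKM in every library with a fold change of 0.07.

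Before S phase, Cdc6 and Cdt1 load the replicative helicase, the ring of Mcm2 to Mcm7, onto DNA. Cdc6 gave 2.48, 2.75 and 1.52 FPKM untreated and 1.61, 1.58 and 1.2 FPKM with IL-36β, so that untreated library 3 lay below IL-36β libraries 1 and 2. Its fold change was -0.46 (-0.94 to 0.02, limma adjusted p = 0.499), and that of Cdt1 was -0.20.

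Of the helicase genes, Mcm4 (chromosome 16, 15623897 to 15637400, minus strand) was the 1 with groups that did not overlap. It stood at 8.53, 8.71 and 8.59 FPKM untreated and at 6.88, 7.81 and 7.22 FPKM with IL-36β. The difference was small, from 8.61 ± 0.0917 to 7.30 ± 0.474 FPKM (mean ± SD, n = 3 each). Its fold change was -0.22 (-0.44 to -0.01), which did not pass (limma adjusted p = 0.454).

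Mcm2 gave 5.77, 7.13 and 7.39 FPKM untreated and 5.82, 6.74 and 7.07 FPKM with IL-36β, a nearly complete overlap. The fold changes of Mcm2, Mcm3, Mcm5, Mcm6 and Mcm7 were -0.04, -0.05, 0.04, 0.15 and -0.04. That of Gins2, a subunit of the active helicase, was 0.05. Gins2 overlaps Gse1 on the opposite strand, which had 1.13 to 2.12 FPKM and a fold change of -0.39, so the Gins2 value is uncertain. Mcm7 varied from 2.69 to 5.87 FPKM among the untreated libraries alone. It overlaps Cops6 on the opposite strand, which had 37.1 to 49.4 FPKM, and the strand handling of the counting was not given in the sources used here, so its value is uncertain.

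Ribonucleotide reductase makes the deoxyribonucleotides used to build DNA, and Rrm2 encodes its cell cycle regulated subunit. Rrm2 (chromosome 12, 24708241 to 24714146, plus strand) stood at 16.8, 22.8 and 14.6 FPKM untreated and at 13.2, 13.2 and 8.43 FPKM with IL-36β. All IL-36β libraries lay below all untreated ones, with IL-36β library 3 the lowest. The means were 18 ± 4.25 and 11.6 ± 2.75 FPKM (SD, n = 3 each). The fold change of -0.62 (-1.13 to -0.11) did not pass (limma adjusted p = 0.405, DESeq2 adjusted p = 0.117).

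The gene of the other subunit, Rrm1, lay between 3.72 and 5.38 FPKM with overlapping groups and a fold change of -0.18. Tyms and Tk1, which supply thymidine nucleotides, had fold changes of -0.04 and -0.28. Tk1 overlaps Afmid on the opposite strand, which had 0.241 to 0.801 FPKM, so the Tk1 value is uncertain. Pcna, the sliding clamp of the DNA polymerases, gave 33.3, 39.0 and 29.2 FPKM untreated and 32.9, 34.8 and 27.5 FPKM with IL-36β. Pcna was the second most abundant G1 and S gene, and its fold change of -0.09 lay within the spread of the libraries (limma adjusted p = 0.835).

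Of the transcription factors, E2f1 stood at 7.08 to 8.64 FPKM in all libraries, with a fold change of -0.09. Mybl2, which encodes B-MYB, lay between 0.938 and 1.76 FPKM, with a fold change of -0.13. Foxm1 (chromosome 6, 128362967 to 128376146, plus strand), the factor of the mitotic genes, gave 2.65, 3.65 and 2.93 FPKM untreated and 1.91, 2.66 and 2.08 FPKM with IL-36β. The groups overlapped only between untreated library 1 and IL-36β library 2. The fold change of Foxm1 was -0.39 (-0.77 to -0.02), which did not pass (limma adjusted p = 0.455).

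**Figure D3:**
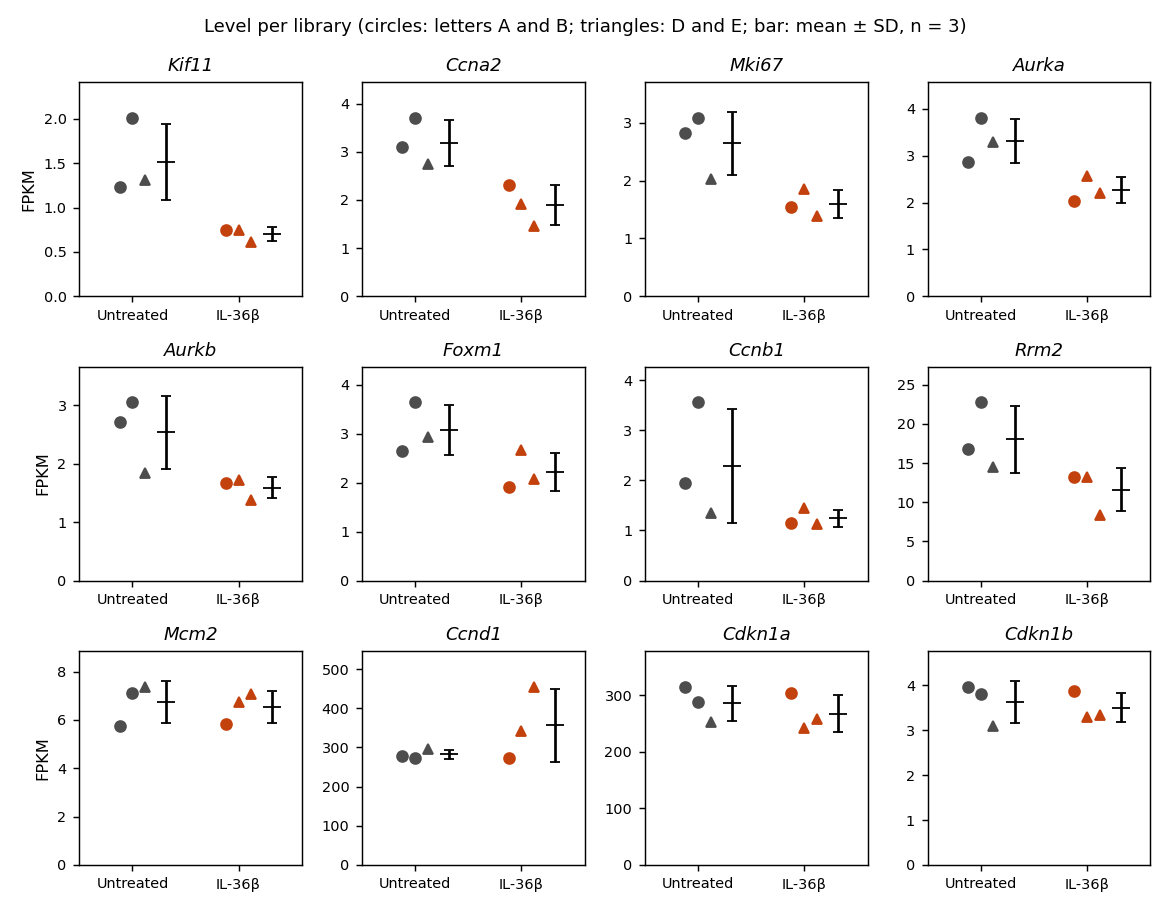
FPKM (y axes, each from 0) of 12 members in each library, untreated in grey and IL-36β in orange, with circles for library letters A and B, triangles for D and E and bars for mean ± SD (n = 3). The 2 groups did not overlap in Kif11, Ccna2, Mki67, Aurka, Aurkb and Rrm2, and overlapped in the other 6.

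Ccna2 encodes cyclin A2, which acts in S phase and G2. Ccna2 (chromosome 3, 36564865 to 36572150, minus strand) stood at 3.11, 3.70 and 2.76 FPKM untreated and at 2.30, 1.92 and 1.47 FPKM with IL-36β. The groups did not overlap, with means of 3.19 ± 0.477 and 1.90 ± 0.419 FPKM (SD, n = 3 each). The fold change was -0.63 (-1.02 to -0.23), that is 0.647 times the untreated level on this scale (0.491 to 0.852). It did not pass (limma adjusted p = 0.279, DESeq2 adjusted p = 0.0579). Ccna2 overlaps Exosc9 on the opposite strand, which had 6.49 to 8.07 FPKM and a fold change of 0.02, so reads of the pair may not be told apart.

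Ccnb1 and Ccnb2 encode the B cyclins, the partners of the mitotic kinase Cdk1. Ccnb1 gave 1.96, 3.56 and 1.34 FPKM untreated and 1.15, 1.44 and 1.13 FPKM with IL-36β. Untreated library 2 was 2.65 times untreated library 3, which lay within the IL-36β values. Its fold change of -0.60 had an interval of -1.25 to 0.05 (limma adjusted p = 0.511).

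Ccnb2 (chromosome 9, 70407692 to 70421547, minus strand) stood at 3.02, 2.81 and 2.85 FPKM untreated and at 2.69, 1.87 and 1.98 FPKM with IL-36β. The groups did not overlap, though untreated library 2 and IL-36β library 1 were close. Its fold change was -0.35 (limma adjusted p = 0.463). Cdk1 gave 3.02, 4.30 and 3.10 FPKM untreated and 3.00, 3.01 and 1.89 FPKM with IL-36β, with untreated library 1 and IL-36β library 2 nearly equal and a fold change of -0.35.

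The phosphatase gene Cdc25c, whose product activates Cdk1, was not tested. It stood at 0.698, 0.788 and 0.168 FPKM untreated and at 0.299, 0.282 and 0.142 FPKM with IL-36β, on 58 and 23 reads in all. It reached 0.5 FPKM in 2 libraries and so lay just below the filter. Cenpa, at 0.5 FPKM or more in 4 libraries, lay just above it. Of those 4 libraries, 3 were untreated and 1 was IL-36β. Cenpa thus met the filter through the untreated group, and its lower level supports nothing about the G2 and M genes.

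Aurora kinases A and B act at the spindle poles and at the centromeres. Aurka (chromosome 2, 172356190 to 172370535, minus strand) stood at 2.87, 3.8 and 3.29 FPKM untreated and at 2.04, 2.57 and 2.19 FPKM with IL-36β. Aurkb (chromosome 11, 69045647 to 69051664, plus strand) gave 2.72, 3.05 and 1.83 FPKM untreated and 1.66, 1.71 and 1.38 FPKM with IL-36β. In both genes every IL-36β library lay below every untreated one, by a narrow margin in Aurkb. Their fold changes were -0.46 (-0.79 to -0.14) and -0.52, and neither passed (limma adjusted p = 0.334 and 0.401).

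Other kinases and checkpoint genes gave smaller differences with overlapping groups. The fold changes were -0.24 for Plk1 and -0.36 and -0.11 for the spindle checkpoint genes Bub1 and Bub1b. That of Birc5, which encodes survivin of the chromosomal passenger complex, was -0.44.

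The anaphase-promoting complex ends mitosis, with Cdc20 as its activator and Ube2c as its ubiquitin-conjugating enzyme. Cdc20, the most abundant G2 and M gene, gave 7.48, 12.3 and 7.0 FPKM untreated and 6.90, 6.28 and 5.00 FPKM with IL-36β. The groups were separated by a narrow margin, and untreated library 2 stood apart. The fold change was -0.49 (limma adjusted p = 0.499). Cdc20 overlaps Elovl1 on the opposite strand, which had 53.6 to 66.3 FPKM, so its level is uncertain too.

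Ube2c stood at 3.93, 5.83 and 3.93 FPKM untreated and at 4.56, 3.84 and 3.02 FPKM with IL-36β, and its groups overlapped (fold change -0.23). Tpx2, a spindle assembly factor that activates Aurora A, gave 4.79, 6.30 and 3.99 FPKM untreated and 4.71, 4.03 and 3.28 FPKM with IL-36β. Its groups overlapped as well (fold change -0.29, limma adjusted p = 0.613).

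Kif11, the kinesin that pushes the spindle poles apart, had the lowest p of the 43 genes. Kif11 (chromosome 19, 37376403 to 37421859, plus strand) stood at 1.23, 2.01 and 1.31 FPKM untreated and at 0.749, 0.745 and 0.616 FPKM with IL-36β, on 389 and 169 reads in all. The IL-36β libraries lay close together and well below the untreated ones, with means of 0.703 ± 0.0754 against 1.51 ± 0.429 FPKM (SD, n = 3 each). The fold change was 0.605 times the untreated level on this scale (0.448 to 0.817). It did not pass with limma (adjusted p = 0.252) or edgeR (adjusted p = 0.139), and passed with DESeq2 on the recovered reads (log2 -1.12, adjusted p = 0.0118).

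Mki67, whose product Ki-67 coats mitotic chromosomes and marks cycling cells, gave a like picture. Mki67 (chromosome 7, 135689784 to 135716361, minus strand) stood at 2.81, 3.08 and 2.03 FPKM untreated and at 1.55, 1.85 and 1.38 FPKM with IL-36β. The groups did not overlap, with means of 2.64 ± 0.547 and 1.59 ± 0.237 FPKM (SD, n = 3 each). The fold change was -0.58 (-0.97 to -0.18), which did not pass with limma (adjusted p = 0.322) or edgeR (adjusted p = 0.196). DESeq2 passed it (log2 -0.74, adjusted p = 0.0229).

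Kif11 and Mki67 were the 2 members that DESeq2 called, both lower, where it called 0.808% of all genes as lower. With edgeR 0 members were called, against 0.0317% of all genes called as lower, and 13 members were lower at an unadjusted p under 0.05 with each of these tools. Of all genes, 5.18% were lower at that p with edgeR and 4.91% with DESeq2. In the authors' deposited table of 660 genes, 3 members are listed, Ccna2, Aurkb and Kif11. All 3 are lower with IL-36β there, with unadjusted p of 0.0423, 0.0424 and 0.0499. Their adjusted p is 0.999, which every gene of that table carries. Mki67, at an unadjusted p of 0.00037 with DESeq2 here, is not listed there. For Ccna2, Aurkb and Kif11, DESeq2 here gave lower unadjusted p of 0.0013, 0.0128 and 0.00015. The authors' table also holds columns of 4 further libraries, and which libraries its p-values rest on was not known. The cause of these differences was not tested. The table holds only genes with an authors' unadjusted p under 0.05, 660 genes beside the 12618 tested here. How many genes the authors tested was not known, so the count of 3 has no exact share over all genes.

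Top2a, the topoisomerase that untangles chromosomes, gave 2.82, 3.63 and 2.59 FPKM untreated and 2.06, 2.88 and 1.74 FPKM with IL-36β. IL-36β library 2 lay within the untreated values, and the fold change was -0.38 (limma adjusted p = 0.546). Kif20a, a kinesin of cytokinesis, gave 1.96, 2.26 and 1.56 FPKM untreated and 1.36, 1.54 and 1.22 FPKM with IL-36β, without overlap but with nearly equal values at the margin. Its fold change was -0.37 (limma adjusted p = 0.481), and that of Kif23, another kinesin of cytokinesis, was -0.17. Kif20a overlaps Cdc23 on the opposite strand, which had 4.39 to 5.68 FPKM and a fold change of -0.18. Reads of this pair may not be told apart.

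The centromere genes were among the least abundant members. Cenpe, a kinesin of the kinetochore, stood at 1.46, 2.08 and 1.12 FPKM untreated and at 1.11, 1.06 and 0.510 FPKM with IL-36β, and the groups nearly touched. Its fold change of -0.57 had an interval of -1.15 to 0.02 (limma adjusted p = 0.493). Cenpa, the centromeric histone, had a fold change of -0.25, and Cenpf, at 0.175 to 0.304 FPKM in all libraries, was not tested.

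Across genes, the median mean level was 6.15 FPKM for the G1 and S group and 2.06 FPKM for the G2 and M group. Summed over all 23 G2 and M genes, the level was 55.1, 74.9 and 48.9 FPKM in the untreated libraries and 45.9, 44.7 and 35.1 FPKM with IL-36β. Every untreated sum lay above every IL-36β sum, with untreated library 2 the highest and IL-36β library 3 the lowest. These sums include Cdc20, whose level is uncertain. The G1 and S sums, mostly Ccnd1, were 416.7, 442.9 and 428.2 FPKM untreated and 405.0, 481.4 and 578.1 FPKM with IL-36β. Among those, IL-36β libraries 2 and 3 lay above all untreated libraries and IL-36β library 1 below them.

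Cdkn1a encodes p21 and Cdkn1b encodes p27, both of which bind and block cyclin-dependent kinases. Cdkn1a (chromosome 17, 29090976 to 29100727, plus strand) stood at 315.5, 288.7 and 253.5 FPKM untreated and at 304.0, 241.5 and 257.7 FPKM with IL-36β. Cdkn1a and Ccnd1 were the 2 most abundant members. The groups overlapped, and the fold change was -0.10 (-0.41 to 0.22, limma adjusted p = 0.822). Cdkn1b (chromosome 6, 134920401 to 134925513, plus strand) gave 3.98, 3.81 and 3.10 FPKM untreated and 3.88, 3.30 and 3.33 FPKM with IL-36β. Its fold change was -0.04 (-0.34 to 0.26), well within the spread of the libraries.

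Other genes of the cell cycle were taken from 4 further lists of 152 genes in the table, of which 139 were tested. With limma 0 of them passed the threshold, 14 were lower and 5 higher at an unadjusted p under 0.05, and their median fold change was -0.16. The shares of all genes at that p, 4.41% lower and 5.96% higher, are the background for these counts and for those of each list. With edgeR 0 passed, and with DESeq2 7 passed, where DESeq2 called 0.808% of all genes as lower and 1.29% as higher.

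In the list of G1 cyclins, kinases and E2F-RB genes (21 tested, median -0.02), 3 were lower and 1 higher at that p. The lowest p belonged to E2f8 and E2f7, atypical E2F factors that repress E2F targets. E2f8 gave 1.00 ± 0.343 FPKM untreated and 0.431 ± 0.0829 with IL-36β, and E2f7 0.848 ± 0.0619 and 0.472 ± 0.0848 FPKM (SD, n = 3 each). Both reached 0.5 FPKM in 3 untreated libraries and 1 IL-36β library. They met the filter through the untreated group, where they were high, so their lower level supports nothing about the list. Their fold changes were -0.67 and -0.47 (limma adjusted p = 0.346 and 0.391, DESeq2 adjusted p = 0.0251 and 0.0409).

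In the list of origin licensing and DNA replication (42 tested, median -0.09), 2 were lower and 0 higher. Clspn, which encodes the checkpoint mediator claspin, gave 1.94 ± 0.436 FPKM untreated and 1.09 ± 0.184 with IL-36β (SD, n = 3 each), with a fold change of -0.61 (limma adjusted p = 0.316, DESeq2 adjusted p = 0.0288). Pole, the catalytic subunit of DNA polymerase epsilon, had a fold change of -0.40 (limma adjusted p = 0.456). In the list of the spindle, the kinetochore and cytokinesis (52 tested of 64, median -0.28), 8 were lower and 1 higher. Of the 139 genes, Nuf2 was the 1 that reached 0.5 FPKM in all 3 untreated and in 0 IL-36β libraries. It was tested only because it was high untreated, so its lower level supports nothing about the list. Spc24 and Depdc1a, at 0.5 FPKM or more in 3 untreated libraries and 1 IL-36β library, also met the filter through the untreated group. The counts and medians of the lists include these genes. Nuf2, a subunit of the Ndc80 complex that ties kinetochores to microtubules, gave 0.640 ± 0.0881 and 0.238 ± 0.0578 FPKM (SD, n = 3 each), with a fold change of -0.63 (limma adjusted p = 0.301, DESeq2 adjusted p = 0.00596). Ckap2l, a spindle protein, had a fold change of -0.58 (limma adjusted p = 0.335, DESeq2 adjusted p = 0.205).

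In the list of other inhibitors and p53 targets (24 tested, median -0.16), 1 was lower and 3 were higher. Gadd45b and Gadd45a are stress genes whose products can halt the cycle. Gadd45b stood at 61.5, 62.0 and 74.5 FPKM untreated and at 97.9, 94.2 and 103.1 FPKM with IL-36β, and Gadd45a at 25.9, 22.7 and 24.3 FPKM untreated and 34.0, 31.8 and 35.4 FPKM with IL-36β. All IL-36β libraries lay above all untreated ones in both genes. The fold changes were 0.58 and 0.47 (limma adjusted p = 0.131 and 0.140, DESeq2 adjusted p = 0.00152 and 0.0258). Cdkn1c, which encodes the inhibitor p57 and was picked with its values in view, gave 2.72, 3.97 and 2.36 FPKM untreated and 1.93, 1.07 and 0.782 FPKM with IL-36β. Its fold change was -1.02 (limma adjusted p = 0.264, DESeq2 adjusted p = 0.0376).

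The libraries of a group were not alike in these genes. Untreated library 2 was the highest of the 6 libraries in 32 of the 43 genes tested, 19 of them G2 and M genes, against 14.2% of all genes. IL-36β library 3 was the lowest in 23 of the 43, 15 of them G2 and M genes, against 20.9% of all genes. The median deviation of the G2 and M genes from their mean over 6 libraries was 0.12, 0.46 and -0.04 on the log2 scale in untreated libraries 1 to 3 and -0.05, -0.12 and -0.39 in IL-36β libraries 1 to 3. Untreated library 3 thus lay close to IL-36β libraries 1 and 2. Without untreated library 2, 3 of the 43 were lower at an unadjusted p under 0.05, against 2.12% of all genes, and the G2 and M median was -0.25. Without IL-36β library 3 there were 4, against 3.04% of all genes, with a median of -0.30. There were 6 without untreated library 1 and 15 without untreated library 3, against 3.2% and 5.26% of all genes. Without IL-36β library 1 or 2 there were 9 and 10, against 4.92% and 5.48% of all genes. With the title number as a block there were 15, against 4.86% of all genes. Kif11, Ccna2 and Mki67 kept an unadjusted p under 0.05 in all 18 fits run. The share of all genes that kept it was not counted, and these fits reuse the same 6 libraries.

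**Figure D4:**
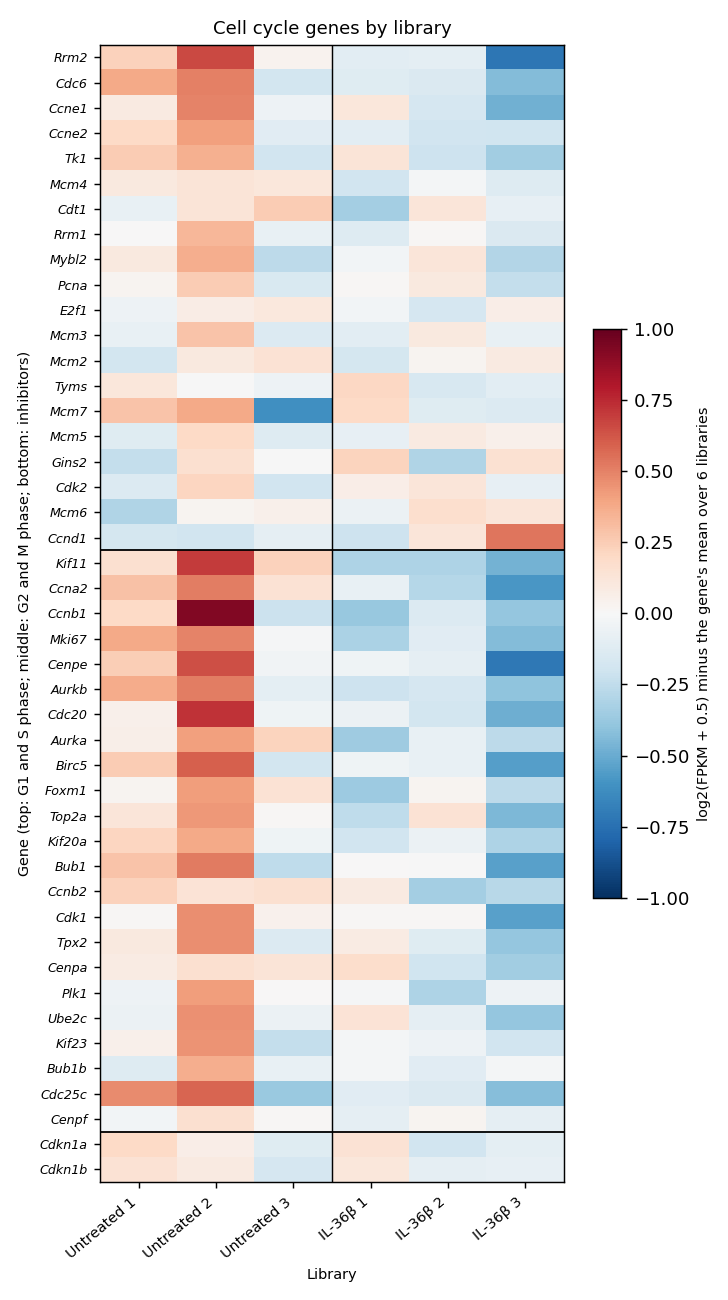
Deviation of log2(FPKM + 0.5) from the gene's mean over the 6 libraries (colour, log2 scale) for all 45 genes (rows, in 3 groups) and 6 libraries (columns, untreated left of the line). Untreated library 2 is the reddest column and IL-36β library 3 the bluest among the G2 and M genes, with median deviations of 0.46 and -0.39.

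The library names split into letters A and B (untreated 1 and 2, IL-36β 1) and letters D and E (untreated 3, IL-36β 2 and 3), a split first made on these same data. What the letters stand for is not stated. The set D and E was lower than A and B in 35 of the 43 genes with a median of -0.22, against 47.9% of all genes below 0. With a test for the set 0 members passed, against 1.74% of all genes. With the set as a term, 0 members passed for IL-36β, against 0.135% of all genes called as lower, and 9 were lower at an unadjusted p under 0.05, against 6.48% of all genes.

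Within A and B the median fold change was -0.47 for the G2 and M genes and -0.16 for the G1 and S genes. Within D and E these medians were -0.19 and -0.07, and for all genes they were -0.003 and 0.001. In both sets 18 of the 21 G2 and M genes were below 0, the exceptions being Bub1b, Cenpa and Kif23, and 9 of the 20 G1 and S genes were. Of all genes tested 31.9% were below 0 in both. Kif11 gave -0.74 within A and B and -0.62 within D and E, and Ccna2 gave -0.47 and -0.58. Mki67 gave -0.75 and -0.27, and Ccnb1 gave -0.94 and -0.05.

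**Figure D5:**
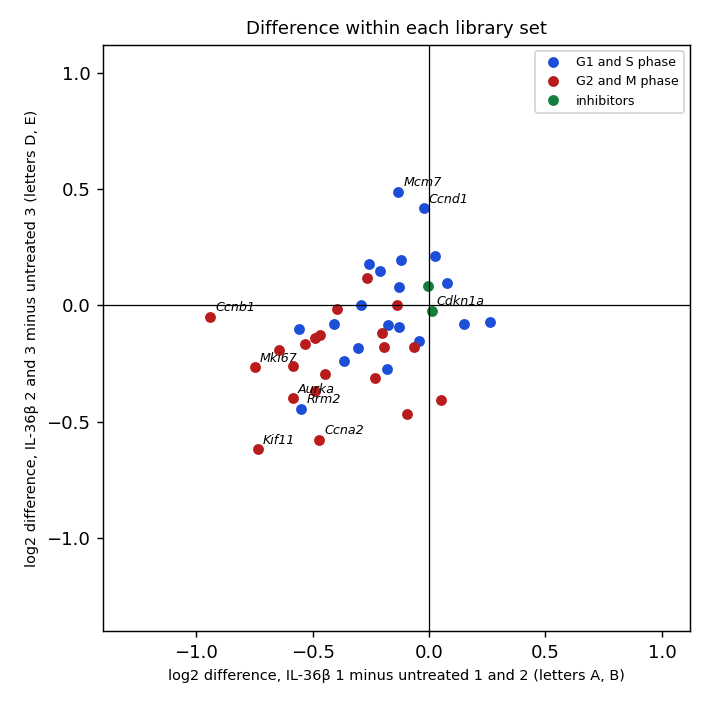
Difference of mean log2(FPKM + 0.5), IL-36β minus untreated, within letters A and B (x axis) and within letters D and E (y axis) for the 43 genes tested, 1 point per gene. Of the G2 and M genes (red), 18 of 21 lie at the lower left, where both differences are below 0.

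Letters A and D each have an untreated and an IL-36β library. Between these the G2 and M genes had a median difference of -0.29 for A and -0.05 for D, and 11 of the 21 were lower with IL-36β in both, against 29.2% of all genes. The G1 and S medians were -0.03 and 0.02.

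Depth was 15180389 to 19544689 reads per library, and 1 FPKM at a gene length of 1 kb is 15.4 to 20.3 reads. Markers of endothelium summed over 15 genes to 2975 to 3513 FPKM untreated and 3008 to 3708 FPKM with IL-36β, with Cdh5 at 865 to 1126 FPKM. Of these, 0 of 15 passed with limma. DESeq2 called the junction gene Cldn5 as higher (log2 0.76, adjusted p = 0.0222). It called Slco1a4, a transporter of brain endothelium, as lower (log2 -1.52, adjusted p = 1.6e-05). Slco1a4 was low in all libraries, at 1.44, 1.95 and 2.12 FPKM untreated and 0.633, 0.844 and 0.454 FPKM with IL-36β.

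Smooth muscle markers summed to 436.2 to 1433.3 FPKM untreated and 388.2 to 850.4 FPKM with IL-36β, mostly Acta2. With limma 0 of 6 tested passed, and DESeq2 called Myh11 and Cnn1, both contractile genes, as lower (adjusted p = 0.00447 and 0.0152). Myh11 gave 6.54, 11.6 and 6.02 FPKM untreated and 4.60, 3.90 and 2.05 FPKM with IL-36β. Cnn1 gave 23.5, 37.9 and 40.6 FPKM untreated and 19.3, 21.7 and 9.59 FPKM with IL-36β. The groups did not overlap in either, and IL-36β library 3 was the lowest in both. The other tested members, Acta2, Tagln, Des and Lmod1, overlapped, and the fold changes of Tagln and Des were 0.18 and 0.27. Myocd was too low to be tested. It gave 0.383, 0.446 and 0.466 FPKM untreated and 0.261, 0.227 and 0.248 FPKM with IL-36β, also without overlap, on 144 and 79 reads in all. Of the 7 markers, 4 were highest in untreated library 3, 2 in IL-36β library 2 and 1, Myh11, in untreated library 2, while 3 were lowest in IL-36β library 3. The part of such cells in the results was not tested.

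Sums were 5.99 to 7.16 and 4.24 to 7.03 FPKM for pericytes, 0.805 to 1.83 and 1.09 to 3.73 for fibroblasts, and 3.81 to 5.31 and 3.60 to 4.91 for astrocytes, with Aqp4 and Slc1a3 at 0 in all libraries. They were 6.87 to 7.80 and 6.87 to 9.34 FPKM for microglia and macrophages, mostly Cd68, with C1qa, C1qb, Tyrobp and Adgre1 at 0. For neurons they were 6.86 to 13.7 and 7.0 to 24.3 FPKM, mostly Tubb3, with Snap25 at 0. The neuron marker Map2 had a lower mean with IL-36β and overlapping groups. It gave 1.20, 1.69 and 0.150 FPKM untreated and 0.333, 0.037 and 0.043 FPKM with IL-36β. Oligodendrocyte markers summed to 9.98 to 12 and 11.1 to 16.9 FPKM, mostly Cnp, with Olig2 and Sox10 at 0. Markers of epithelium and ependyma summed to 0.181 to 0.415 and 0.154 to 0.483 FPKM.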

How the data were processed

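Libraries of poly(A) RNA (stranded mRNA kit, Illumina sequencing, per the labels' protocols) were grouped by their titles. The submitters' processing notes name build GRCm38 and, without roles, DESeq2 1.38.3, featureCounts 1.50-p3, StringTie, HISAT2 2.05 and fastp. The strand handling of the counting was not given in the sources used here. FPKM for 54532 genes were deposited by the authors. For 660 genes the authors deposited raw counts, counts divided by size factors (a signal scale), p-values before and after adjustment and log2 fold changes, of which the signs, p-values and raw counts were used. An ontology table was not used. Among the deposited columns, 8 belong to 4 libraries without a matching sample label and were not used.

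FPKM times gene length gave whole reads after 1 divisor per library (within 0.01 of a whole number in 100% of values), equal to the deposited counts in all 660 genes. Depth was 15790499, 19544689 and 15439602 reads in untreated libraries 1 to 3 and 15180389, 16488697 and 18938592 in IL-36β libraries 1 to 3. Chi-square per degree of freedom between replicates was 11.0 to 40.5, above sampling noise.

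Values of log2(FPKM + 0.5) were tested in limma 3.58.1 under R 4.3.3 (trended prior, two-sided), for genes with 0.5 FPKM in 3 or more libraries, with Benjamini-Hochberg adjustment over 12618 genes. It was checked on simulated reads with changes larger than any that limma fitted for the members and with no effect of the library set. The check therefore does not cover changes as small as those of the members. On the recovered reads, DESeq2 1.42.0 and edgeR 4.0.16 (quasi-likelihood) served as alternatives. Further alternatives were other pseudocounts, filters and scalings, blocks by title number or library letter, the library set as a term and leaving out each library.

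The members and lists were chosen with earlier results of these data known. Values in every library are given for members with an unadjusted limma p under 0.05, the 3 most abundant of each phase group, the inhibitors and Mki67, Top2a, Ccna2, Ccnb1, Ccne1, Mcm2 and Foxm1. Members called by an alternative and the 2 lowest p of each further list are named, and other members named with values by library were chosen after their values were seen. Of the symbols in the further lists, 1 was not matched in the table. Promoter windows came from RefSeq (GRCm38.p6).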

Additional observations from a re-analysis of the deposited data

How the results depend on the processing

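The counts, the medians and 21 named members were recomputed under 17 alternatives. The count of all genes past the threshold, 23, became 0 without the filter on low values, 15 with TPM scaling, 37 with edgeR, 260 with DESeq2 and 102 with the library set as a term, and 2 to 8 when each library was left out. The members past the threshold, 0, became 2 with DESeq2 (Kif11 and Mki67) and stayed 0 in the other alternatives. When each library was left out, 3 to 15 members were lower and 0 to 1 higher at an unadjusted p under 0.05. The median fold change stayed below 0 in all 17, from -0.53 to -0.25 for G2 and M genes and from -0.17 to -0.03 for G1 and S genes. TPM scaling moved the median of all genes to -0.08. Cdkn1b turned to 0.040 with the library set as a term. Leaving out each library gave -0.136 to 0.021 for Cdkn1b (above 0 without untreated replicate 1), -0.187 to 0.017 for Pcna (above 0 without untreated replicate 2, and at 0.0096 without IL-36β replicate 3) and -0.143 to 0.035 for Mcm2 (above 0 without IL-36β replicate 1, and at 0.022 without untreated replicate 3). The cause of these shifts was not tested. The adjusted p ranged from 0.0118 to 0.695 for Kif11 and from 0.0229 to 0.856 for Mki67 over these fits. Title numbers and library letters disagree on pairs. Deviations of same-numbered libraries correlated at 0.207, -0.141 and 0.211. Not every library correlated best with its own number, so the numbers were not taken to pair libraries. Same-lettered libraries correlated at 0.207 for A and 0.275 for D. Untreated library 2 and IL-36β library 1, which share neither number nor letter, correlated at 0.388. The replicate block by title number gave 13 genes past the threshold, 0 of them members, and 15 members lower at an unadjusted p under 0.05, against 4.86% of all genes. The replicate block by library letter gave 37 genes, 0 of them members.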
